A study of Mus musculus with 24 samples.

Results

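The Eset2 mutant mouse embryonic fibroblast clone (E2) was compared with its parental clone (WT), both grown without the Eset1-deleting drug, in 6 of the 24 RNA-seq libraries of the series. The 3 E2 and 3 WT libraries were taken by their titles, which carry the name of a clone, the word for control and a replicate number. The WT clone carries a floxed, still intact Eset1 (Setdb1) gene and a tamoxifen-inducible Cre. It is called WT by the study, although its label gives the genotype Eset1 cKO. The E2 clone, labelled Eset1cKO Eset2 KO, carries the same floxed Eset1 and a CRISPR frameshift in Eset2 (Setdb2). In both clones 4-hydroxytamoxifen (4-OHT) is the agent that deletes Eset1, and it turns WT into the E1 condition and E2 into E1E2. The treatment field names 4-OHT at 1 uM for these 6 libraries too, while their titles and descriptions mark them as controls. They were read here as untreated.

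E2 is 1 clone, isolated from a single cell, and its mutation was read by sequencing of the exon, since no antibody against Eset2 was used. The inducible Cre was introduced again after CRISPR editing, on a construct with a puromycin marker under constant selection. The Eset2 mutation, the history of this clone and the construct therefore cannot be told apart in any difference from WT. The study calls the 3 libraries of a line biological replicates and independent samples, without saying that they came from separate cultures. The p-values and standard errors of fitted log2 fold changes measure the spread between libraries of a condition, pooled over all 24 libraries of the series. They do not measure the spread of the WT and E2 libraries alone, and this spread may be technical.

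Methylation of histone H3 at lysine 9 marks silent chromatin and is written by the SET-domain enzymes Suv39h1, Suv39h2, Eset1, Eset2, G9a (Ehmt2) and Glp (Ehmt1). Eset1 is brought by zinc-finger proteins and Trim28 to endogenous retroviruses, the remnants of past germline infections that are flanked by long terminal repeats (LTRs), and its loss is known to release them. Eset2 is a much less studied relative, known in macrophages for restraining genes that the transcription factor NF-kB switches on, among them the chemokine gene Cxcl1.

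The frameshift of the E2 clone lies in exon 7 of Eset2, which is given here because it is the edited region. The gene Setdb2 is on the minus strand of chromosome 14 (GRCm38, chr14:59402009-59440884). In its GENCODE transcript Setdb2-201 exon 7 is 1 of 15 exons, is coding throughout and has 561 bases. The first 300 bases of its reference sequence are given in the direction of the transcript, and no base is in capitals because the position of the frameshift was not used here.
Setdb2 exon 7, chr14:59419262-59419561, minus strand: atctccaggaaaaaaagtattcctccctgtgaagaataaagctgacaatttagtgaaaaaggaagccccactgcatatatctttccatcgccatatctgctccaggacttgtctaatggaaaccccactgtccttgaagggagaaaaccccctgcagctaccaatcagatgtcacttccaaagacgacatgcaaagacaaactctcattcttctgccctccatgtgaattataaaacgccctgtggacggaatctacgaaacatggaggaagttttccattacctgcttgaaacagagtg

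The Setdb2 transcript was lower in the E2 clone. Its normalised read counts, which are scaled to the mean library size of the series, were 722, 822 and 719.6 in WT and 266, 299.5 and 317 in E2. The groups did not overlap, and the log2 fold change was -1.36 ± 0.09 (SE, 3 libraries in each group, adjusted p = 4.35e-11). In E1, whose Eset2 gene is intact, the mean was 658, and E2 lay below E1 by a log2 difference of -1.16 (adjusted p = 1.09e-09). These are counts over the whole gene, so they do not show which transcript is made from the edited exon.

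A gene or repeat was called changed when its log2 fold change was at least 1 in size with a Benjamini-Hochberg adjusted p of at most 0.01 (edgeR quasi-likelihood test), and "rose" and "fell" are used only of such calls. Of the 5 other H3K9 methyltransferase genes none was called. With edgeR, Suv39h2 had a log2 fold change of -0.38, Setdb1 of -0.31 and Ehmt2 of 0.43, and these 3 had unadjusted p-values under 0.05. DESeq2 called none of the 5 either. For Setdb1 the counts were 1612, 1477 and 1497 in WT and 1284, 1018 and 1398 in E2. All 3 E2 libraries were below WT (adjusted p = 0.00261), though under the minimum for a call. The Setdb1 mean was 1031 in E1 (log2 fold change against WT -0.57) and 1237 in E1E2. The deletion leaves the rest of the Setdb1 transcript to be counted, so these values do not measure how many cells carry an intact gene. In bulk RNA, fewer cells that make a transcript and less of it in each cell cannot be told apart.

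Of 17 partners of the H3K9 enzymes, 2 rose, where 2.9% of all genes tested did, and 15 were not called. Both are partners of Eset1. Resf1, which recruits Eset1 to retroviruses, had 4368, 4377 and 4501 counts in WT and 29875, 25246 and 31978 in E2, a log2 fold change of 2.72 ± 0.07. Atf7ip, which stabilises Eset1 in the nucleus, had 2008, 1457 and 1939 counts in WT and 5778, 5606 and 6176 in E2, a log2 fold change of 1.70 ± 0.09. For both genes every E2 library was far above every WT library. The same 2 genes rose in E1, by 2.11 and 1.73, and E2 and E1 differed for Resf1 (log2 difference 0.60, adjusted p = 3.72e-07, under the minimum for a call) and not detectably for Atf7ip (-0.02, adjusted p = 0.867).

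The 6 libraries held between 25698231 and 34985475 counts, of which repeats took 12.5 to 13.7% in WT and 14.6 to 15.7% in E2. The biological coefficient of variation was 15.9% within WT and 10.1% within E2. WT replicate 2 stood apart from the other WT libraries, with a chi-square per gene of 62.8 and 52.5 against 4.72 between replicates 1 and 3. E2 replicate 2 stood apart too, with 16.0 and 17.0 against 5.57. Among 11431 genes with a mean count above 100, 57 were over 2-fold lower in E2 replicate 2 than in both other E2 libraries, where the other 5 libraries had 3 to 7 such genes. Of those 57 genes, 19 were among the genes called higher in E2. The fibroblast genes were mixed. In the list of fibroblast matrix and identity genes 13 of 49 tested members fell, the markers Thy1 and Pdgfra among them. At an unadjusted p under 0.05, 28 members were lower. Of all 18565 genes tested 3.21% fell and 4583 were lower at that level. Col1a1, Col3a1, Vim, Prrx1, Twist1 and Twist2, chosen after their values were seen, had log2 fold changes between -0.16 and 0.08 and none was called. The other listed fibroblast markers Col1a2, Fn1, Sparc and Pdgfrb are not described here, so these genes do not stand for the whole set.

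In all, 538 genes (2.9% of the 18565 tested) rose in E2 and 596 (3.21%) fell. Most changes were moderate. Among the rises, 284 had a log2 fold change under 2, 168 between 2 and 4 and 86 of 4 or more, and among the falls 328, 183 and 85 did so. Protein-coding genes made up 424 of the rises and 479 of the falls. Among 500 lincRNAs 32 rose (6.4%) and 13 fell (2.6%). The 3 E2 libraries lay above all WT libraries for 512 of the 538 rises and below them for 592 of the 596 falls. Among all genes tested, 17.6% were separated upwards and 20.6% downwards.

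**Figure D1:**
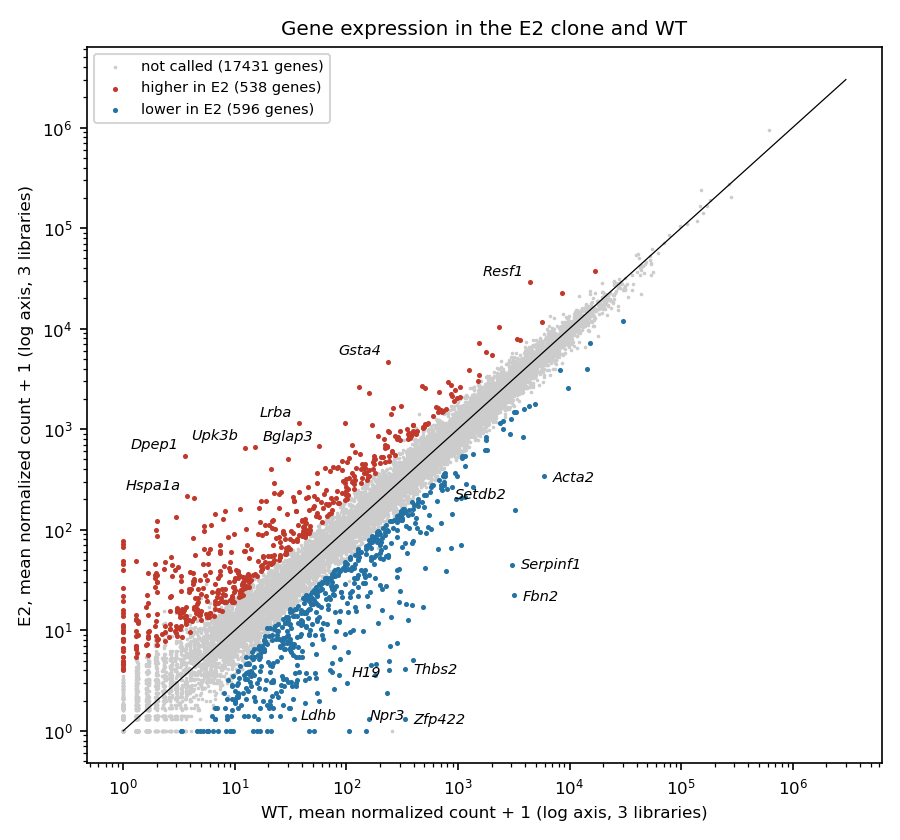
Mean normalised count + 1 of each tested gene in WT (x axis) and E2 (y axis), both on log axes, with 3 libraries in each mean and the diagonal marking equality. Red points are the 538 genes called higher and blue points the 596 called lower; Dpep1 and Upk3b lie far above the diagonal, and Zfp422, Npr3 and Ldhb lie at or near 0 in E2.

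The 15 largest rises came from genes at or near 0 in WT as well as from expressed ones. Dpep1 (chr8:123186242-123201812, plus strand), a membrane dipeptidase that cleaves leukotrienes and glutathione products, had 0, 2.74 and 5.02 counts in WT and 645, 495.0 and 495.5 in E2 (log2 fold change 7.62 ± 0.24). The glutathione transferases Gsta1 and Gsta4 rose by 5.98 ± 0.23 and 4.33 ± 0.13. They belong to a family of close copies whose reads can be split between members. The stress-induced chaperone Hspa1a rose by 6.25 ± 0.63, and it too has a near-identical copy.

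Some of the rises were not shared with E1. Upk3b, a membrane protein of the urothelium and mesothelium, had 13.9, 11.9 and 8.03 counts in WT and 558, 897 and 493 in E2 (log2 fold change 5.85 ± 0.27), but a log2 fold change of only 0.86 in E1 (adjusted p = 0.235). The direct difference between E2 and E1 was 4.99 (adjusted p = 3.6e-13). Crb2, an apical polarity protein of epithelia, behaved likewise. It had 8.52, 2.74 and 9.03 counts in WT and 69.0, 196 and 119 in E2 (4.28 ± 0.38), against -0.48 in E1 and a direct difference of 4.75 (adjusted p = 4.59e-09). Lrba, a protein of vesicle trafficking, had 36.2, 36.5 and 36.1 counts in WT and 1067, 1210 and 1153 in E2 (4.97 ± 0.11). It rose less in E1 (2.79), with a direct difference of 2.19 (adjusted p = 4.68e-15).

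Apart from Upk3b and Crb2, each of the 15 largest rises was also called higher in E1. Bglap3, a relative of the bone protein osteocalcin, had 9.59, 15.5 and 17.1 counts in WT and 634, 714 and 638 in E2 (5.53 ± 0.12), and rose by 6.43 in E1. The zinc-finger gene Zfp981, the major urinary protein pseudogene Mup-ps23 and Ulbp1, a ligand of natural killer cell receptors, rose by 4.62, 4.36 and 4.35 in E2 and by 5.48, 5.28 and 4.07 in E1. Zfp981 belongs to a cluster of near-identical zinc-finger genes, and Mup-ps23 resembles its gene family, so their counts are uncertain. Tdrd9, a helicase that silences retroelements in the male germline, had 1 count in each WT library (1.07, 0.913 and 1.00 after scaling) and 145, 76.2 and 140.2 in E2. The ratio was 121, with a 95% counting interval of 41.1 to 591. Syt13, a synaptotagmin, rose by 4.30, and the pseudogene Gm10582 and the lincRNA Gm26525, which lie close together on chromosome 4 (chr4:88761101-88761500 and chr4:88784455-88794391), rose by 5.92 and 4.38.

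The largest falls included genes at or near 0 in every E2 library. Npr3 (chr15:11839896-11907287, minus strand), the clearance receptor for natriuretic peptides, had 156, 155 and 131 counts in WT and 0 in each E2 library, at least 135-fold lower against a floor of 3 counts over the group. Ldhb, a subunit of lactate dehydrogenase, had 89.5, 129 and 96.3 counts in WT and 0 in each E2 library, at least 96.1-fold lower. The zinc-finger gene Zfp422 (chr6:116624016-116628999, minus strand) had 311, 395 and 306 counts in WT and a single read in the 3 E2 libraries together, a ratio of 1129 (95% counting interval 202 to 44643). Scara3, a scavenger receptor, also had a single read in E2, and its WT counts were 173, 117 and 183, a ratio of 527 (94.0 to 20839). In E1 the means were 118 for Npr3 and 219 for Zfp422, neither called lower than WT, and 46.2 for Ldhb and 38.9 for Scara3, which fell in E1 too (-1.18 and -2.01). The counting intervals cover counting error only.

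Other large falls left a few counts in E2. The log2 fold change was -7.21 for the cytokine Ptn, -7.17 for the microfibril protein Fbn2 and -6.66 for the anti-angiogenic matrix protein Thbs2. Serpinf1, an anti-angiogenic serpin, had 3047, 3128 and 3033 counts in WT and 40.4, 59.2 and 30.9 in E2, a log2 fold change of -6.10 ± 0.16. These 4 genes also fell in E1, with log2 fold changes of -2.12, -4.04, -1.85 and -2.78, and each was lower in E2 than in E1 in the direct test, with log2 differences between -5.09 and -3.13. Slit3, a guidance ligand, and the genes Rps6ka6 (a kinase) and Nhs also fell, with -5.72, -5.51 and -5.50. Sox11, a transcription factor of developing tissues, had 223, 129 and 185 counts in WT and 2.38, 1.79 and 3.56 in E2 (-6.08 ± 0.37), whereas its log2 fold change in E1 was 0.59, a direct difference of -6.67 (adjusted p = 1.25e-12).

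Of 55 genes of the fibroblast matrix and identity list, 49 were tested. Of these 13 fell, 1 rose and 35 were not called, where 3.21% of all genes tested fell and 2.9% rose. The median log2 fold change was -0.43 against -0.01 over all genes tested. Acta2, smooth muscle actin, had 5213, 7227 and 5396 counts in WT and 339, 346 and 334 in E2 (-4.13 ± 0.10). Tagln, an actin-binding protein of the same cells, had -1.90 ± 0.09. Both were lower in E2 than in E1, by log2 differences of -3.22 and -1.03, and E1E2 lay above E2 for both, by 2.28 and 1.42.

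Col6a3, a chain of collagen VI, had 390.0, 248 and 436 counts in WT and 13.1, 8.97 and 13.1 in E2 (-4.95 ± 0.25), while the other chains Col6a1 and Col6a2 had log2 fold changes of 0.56 and 0.80 (not called). Among the other falls were periostin (Postn, -3.76), the surface protein Thy1 (-2.87), the elastic-fibre proteins Mfap5 (-2.13) and Fbln5 (-2.05), tenascin C (Tnc, -1.72), the adhesive glycoprotein Thbs1 (-1.34), the growth factor receptor Pdgfra (-1.27) and the protease inhibitor Timp3 (-1.08). In each of the 13 falls the E2 libraries lay below all WT libraries, which held for 20.6% of all genes tested. Thy1 had a log2 fold change of -0.10 in E1 and the direct difference was -2.77 (adjusted p = 6.96e-11). Decorin (Dcn), a collagen-binding proteoglycan, went the other way in E1: its counts were 25.6, 43.8 and 39.1 in WT and 85.7, 143 and 103 in E2 (1.62 ± 0.24), against -1.80 in E1.

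The genes of inflammation differed between the E2 libraries. Of 30 genes in a list of NF-kB and reported Eset2 targets, 25 were tested. Of these 13 were called higher and 1 lower in E2, where 2.9% and 3.21% of all genes tested were. The median log2 fold change was 1.75. It was 1.44 with the 6 genes that had a group at 0 set at their bound against the floor of 3 counts. For each of the 13 the higher values were those of E2 replicates 1 and 3. Over the list, the median log2 level above the WT mean was 1.90 in E2 replicate 1, 0 in replicate 2 and 1.94 in replicate 3. E2 replicate 2 was at or below the highest WT library for 8 of the 13 genes, and more than 2-fold below each of the other E2 libraries for 11.

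The promoters of 5 of these genes are shown because they carry the letters of an NF-kB site within 250 bases before the RefSeq start (RefSeq annotation on GRCm38.p6). The motif searched was GGG, then 2 bases of any kind, then TTTCC, on both strands. It was found in 1.65% of the 27025 genes with a promoter entry. Of the 13 genes called higher, 7 had an entry, and the motif was in 5. Each line gives the last 125 bases before the start in the direction of the gene, with the match in capitals. Cxcl1 holds 2 separate matches. A match describes the letters and does not show binding. Because the list holds NF-kB targets, such letters can be frequent in its genes without any change in E2. The share of matches therefore says nothing about E2, and it was not compared with the members not called.
Cxcl1, chr5:90891120-90891244, plus strand: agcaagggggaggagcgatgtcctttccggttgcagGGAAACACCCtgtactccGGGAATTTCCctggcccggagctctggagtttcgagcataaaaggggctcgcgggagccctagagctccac
Ccl20, chr1:83116641-83116765, plus strand: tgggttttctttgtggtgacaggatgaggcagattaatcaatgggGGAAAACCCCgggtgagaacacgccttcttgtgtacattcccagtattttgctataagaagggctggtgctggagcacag
Il6, chr5:30012989-30013113, plus strand: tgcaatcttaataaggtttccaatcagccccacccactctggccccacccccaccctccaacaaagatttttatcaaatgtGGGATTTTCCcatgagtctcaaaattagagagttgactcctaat
Nfkbia, chr12:55492648-55492772, minus strand: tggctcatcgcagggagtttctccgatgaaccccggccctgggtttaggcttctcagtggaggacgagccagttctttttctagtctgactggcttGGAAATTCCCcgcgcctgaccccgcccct
Tnfaip3, chr10:19015411-19015535, minus strand: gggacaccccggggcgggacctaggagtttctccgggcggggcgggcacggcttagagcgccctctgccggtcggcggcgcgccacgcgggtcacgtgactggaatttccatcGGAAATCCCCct

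Most of the 13 genes called higher encode chemokines. Cxcl1, which attracts neutrophils, had 48.0, 76.7 and 41.1 counts in WT and 1148, 43.0 and 827 in E2. Ccl2, which attracts monocytes, had 1283, 1991 and 1376 counts in WT and 10730.5, 946 and 9720.5 in E2. For both genes E2 replicates 1 and 3 were far above WT and replicate 2 lay within or below the WT range, so the groups overlapped. The fitted log2 fold changes were 3.56 ± 0.61 (adjusted p = 7.16e-05) and 2.20 ± 0.44 (adjusted p = 0.000382). In Cxcl5 (4.55), Cxcl10 (1.64), Ccl5 (1.75), Ccl7 (1.44) and Ccl20 replicate 2 was also the lowest E2 library by a wide margin. In Ccl20 the counts were 0, 2.74 and 0 in WT and 41.6, 0.897 and 35.6 in E2, a ratio of 28.5 (95% counting interval 9.35 to 142).

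Nfkbia, the inhibitor that NF-kB itself induces, had 862, 891 and 885 counts in WT and 3280, 764 and 2341 in E2 (1.27 ± 0.28). Tnfaip3, another feedback inhibitor, had 728, 609 and 641 counts in WT and 1864, 848 and 1696 in E2 (1.15 ± 0.19). Nfkbia in E2 replicate 2 was below every WT library, while Tnfaip3 was above. The adhesion molecule Icam1 was at 0 in all WT libraries and at 113, 2.69 and 84.4 in E2, at least 67.1-fold higher over the group. Nos2, the inducible nitric oxide synthase, was at 0 in WT and at 30.9, 0 and 32.1 in E2, at least 21.1-fold higher.

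Il6, a cytokine of the acute phase, had a single read in each WT library and 8.33, 1.79 and 10.7 counts in E2, a ratio of 6.98 (2.04 to 37.0), and the colony-stimulating factor Csf3 had 2.13, 2.74 and 5.02 in WT and 13.1, 10.8 and 23.8 in E2. Csf3 and Il6 lay above WT in all 3 E2 libraries. Ptgs2, the prostaglandin synthase COX-2, was the 1 member that fell, with a log2 fold change of -1.49 ± 0.14 in E2 and -1.46 in E1. Its counts were 4562, 6041 and 4237 in WT and 1781, 1287 and 2236 in E2, and replicate 2 did not part from the others in direction.

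**Figure D2:**
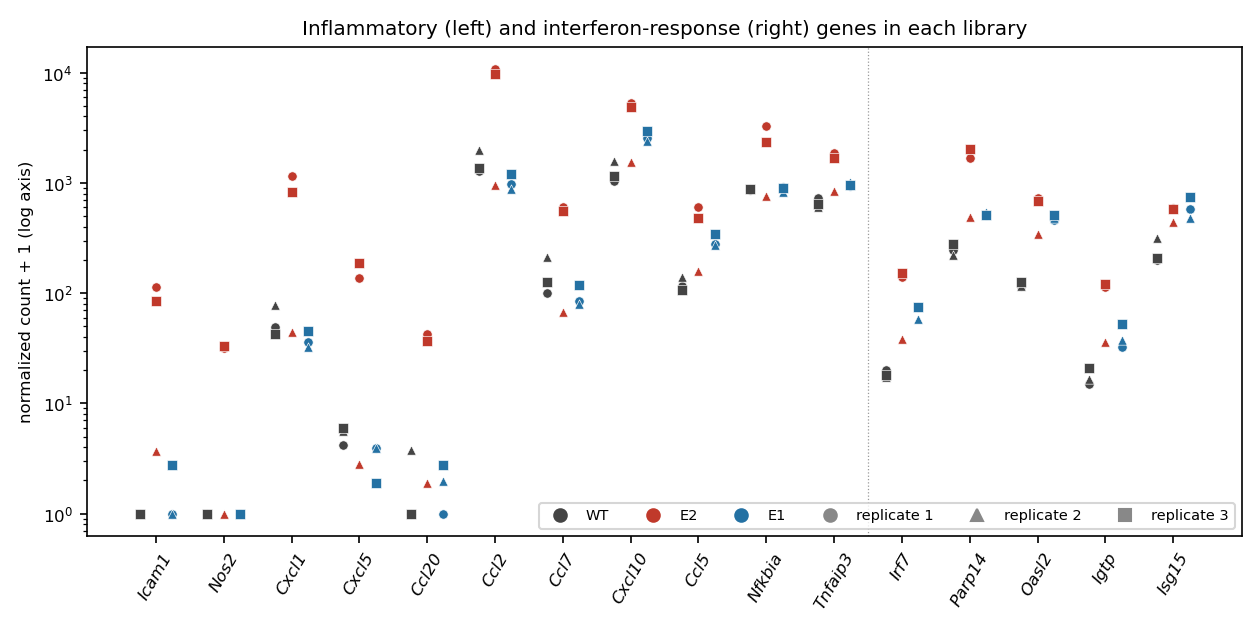
Normalised counts + 1 (log axis) of NF-kB and interferon response genes in each WT, E2 and E1 library, with a marker shape for each replicate. E2 replicate 2 lies near WT for Cxcl1, Ccl2 and Nfkbia, while E2 replicates 1 and 3 lie above; E1 lies near WT for these 3 genes.

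The same clone after 4-OHT was high in all 3 libraries. In E1E2, Cxcl1 had 2042, 1412 and 1463 counts and Ccl2 had 14196, 11107 and 10929. In E1, 2 members of the list rose and 1 fell, and 9 were higher in E2 than in E1 in the direct test. The 13 calls depend on how the spread is estimated. With only the 6 WT and E2 libraries in the edgeR fit, 0 passed, with 13 at an unadjusted p under 0.05, while DESeq2 on all libraries called 13. Without E2 replicate 2 the count was 15, and without E2 replicate 1 it was 7. Markers of macrophages, which make these chemokines, stayed low: of 8, 5 were tested, and edgeR and DESeq2 each called 0. With edgeR 1 was lower at an unadjusted p under 0.05. Ptprc and Lyz2 were at 0 in all 6 libraries, and the summed level of the tested markers was 153 to 167 in WT and 120.2 to 146 in E2. Why E2 replicate 2 differs was not tested.

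Genes of the interferon response were higher with a smaller gap. Of 47 tested, 16 rose, where 2.9% of all genes tested did, and the median log2 fold change of the list was 0.96. For each of the 16 all 3 E2 libraries lay above WT, which held for 17.6% of all genes tested. E2 replicate 2 was again the lowest: the median log2 level above WT was 1.12, 0.27 and 1.26 in replicates 1 to 3, and in 9 of the 16 genes it was more than 2-fold below each of the others. Without it 27 genes were called. With only the 6 libraries in the fit 10 were.

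Of the 16 genes, 11 had a promoter entry, and 4 held the letters of an interferon-stimulated response element, GAAA, then 2 bases of any kind, then GAAA, on either strand. This motif was in 3.46% of all genes with an entry. The 16 come from a list of interferon response genes, so this share too says nothing about E2. The 4 promoters are shown as above, with matches in capitals. In Isg15, 3 matches overlap each other.
Isg15, chr4:156200819-156200943, minus strand: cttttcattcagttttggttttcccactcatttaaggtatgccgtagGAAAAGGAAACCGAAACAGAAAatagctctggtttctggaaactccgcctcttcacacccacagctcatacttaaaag
Oas3, chr5:120777660-120777784, minus strand: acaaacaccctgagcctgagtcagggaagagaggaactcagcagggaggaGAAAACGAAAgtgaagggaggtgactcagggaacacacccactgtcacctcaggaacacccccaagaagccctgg
Igtp, chr11:58199431-58199555, plus strand: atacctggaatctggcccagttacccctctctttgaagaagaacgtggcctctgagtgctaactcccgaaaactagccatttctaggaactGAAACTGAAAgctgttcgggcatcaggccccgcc
Rsad2, chr12:26456453-26456577, minus strand: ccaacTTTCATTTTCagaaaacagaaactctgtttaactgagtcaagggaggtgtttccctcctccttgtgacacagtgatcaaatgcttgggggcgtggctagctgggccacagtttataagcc

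Parp14, a mono-ADP-ribosyltransferase, had 244, 221 and 278 counts in WT and 1690.5, 484 and 2026 in E2 (2.49 ± 0.32). Oasl2, of the oligoadenylate synthetase family, had 116, 114 and 125 counts in WT and 733, 345 and 678 in E2 (2.29 ± 0.22). In both genes replicate 2 was the lowest E2 library and still above WT. Isg15, a ubiquitin-like modifier, varied less, with 199, 314 and 207 counts in WT and 585, 439 and 583 in E2 (1.14 ± 0.17). The antiviral genes Oas3 (3.54), Irf7 (2.59), Igtp (2.36), Mx2 (2.36), Mx1 (2.24), Xaf1 (2.16), Zbp1 (1.71), Oasl1 (1.65), Rsad2 and Rtp4 (1.33) also rose, as did the antigen-processing genes Psmb8 (2.57), Psmb9 (2.16) and Tap1 (1.71). In E1 12 members of the list rose, with a median of 0.81. Parp14 and Zbp1 were higher in E2 than in E1, by 1.41 (adjusted p = 0.000907) and 1.48 (adjusted p = 0.00157), while Isg15 (-0.17), Oas3 (-0.01) and Oasl1 (-0.03) did not differ detectably. Psmb9 and Tap1 overlap at their starts.

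Endogenous retroviruses were higher in the untreated E2 clone, up to a log2 fold change of 6.69. Of 1216 repeat elements tested, 60 rose (4.93%) and 27 fell (2.22%). Among the rises 55 were LTR elements, 35 of them of the ERVK family and 18 of the ERV1 family. For 57 of the 60 all E2 libraries lay above all WT libraries, which held for 17.8% of all elements. The summed LTR count was 409845, 296271 and 393881 in WT and 977811, 810081 and 1034320 in E2, a ratio of 2.57. The ratios were 1.10 for LINE, 1.04 for SINE, 1.03 for DNA and 1.01 for Satellite sums. The two-sided exact permutation p was 0.1 for LTR, the smallest that 3 against 3 libraries can give, and 0.6 to 0.9 for the others.

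Of the ERV1 group, MMVL30-int, the internal part of the VL30 retrotransposon, had 4685, 5243 and 4619 counts in WT and 283536, 152136 and 301000 in E2, a log2 fold change of 5.66 ± 0.16. Its LTRs RLTR6C_Mm and RLTR6_Mm rose by 6.17 and 4.86, and RLTR6-int by 5.17. All E2 libraries were well above WT, and in E2 replicate 2 the counts of these 4 elements were the lowest of the E2 libraries. MuLV-int, of murine leukaemia viruses, had 5507, 3599 and 4765 counts in WT and 100811, 99771 and 99581 in E2 (4.44 ± 0.12), and replicate 2 did not stand apart.

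Of the ERVK group, RLTR9A3A had 5.33, 4.57 and 8.03 counts in WT and 686, 500.4 and 705 in E2 (6.69 ± 0.21). MMERVK10C-int had 3450.4, 3095 and 3424 counts in WT and 49076, 55110.2 and 55194 in E2 (4.00 ± 0.10). RLTR45-int rose by 6.06, MMERVK10D3_I-int by 5.87, IAPLTR4 by 4.999, RLTR10D2 by 4.91 and RLTR1F_Mm by 4.81. All of these were separated from WT. Related elements share reads, so their counts are not independent of each other.

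**Figure D3:**
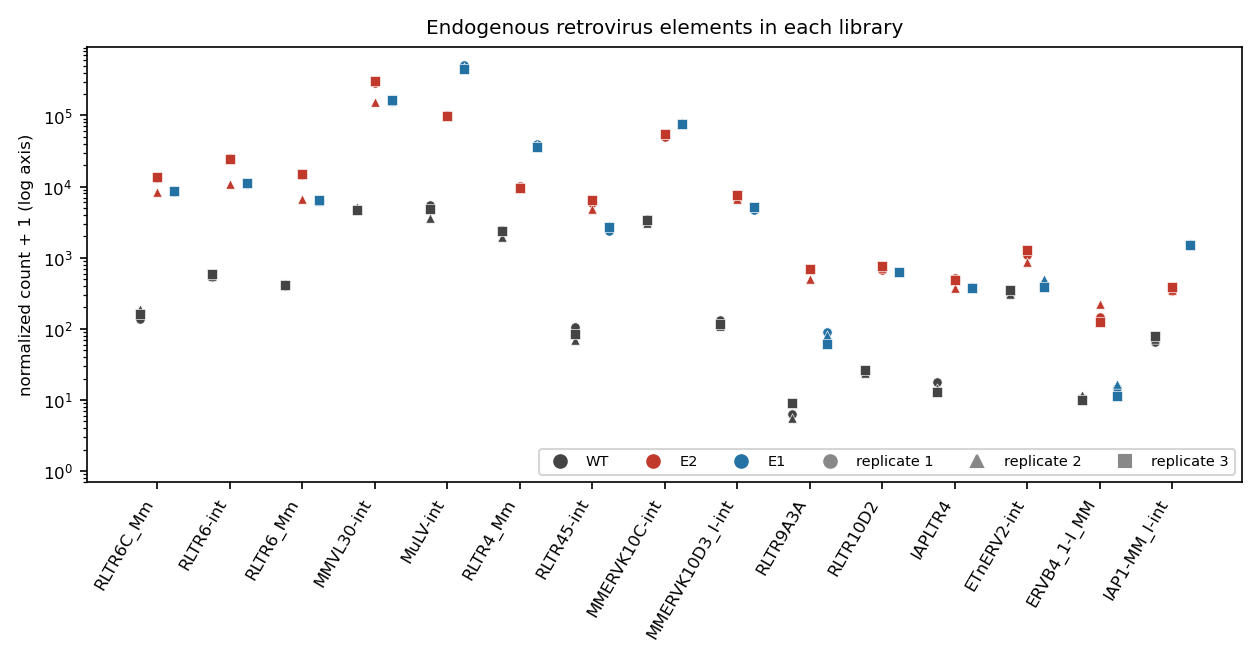
Normalised counts + 1 (log axis) of 15 LTR elements in each WT, E2 and E1 library, with a marker for each replicate. E2 lies above WT for every element shown; MuLV-int, RLTR4_Mm and IAP1-MM_I-int are higher in E1 than in E2, and RLTR9A3A, RLTR45-int, ETnERV2-int and ERVB4_1-I_MM are higher in E2.

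Against the retroviruses released by the deletion of Eset1, most elements that rose in E2 did not differ from E1 by enough for a call. E1 raised 56 elements (4.61%) and lowered 3 (0.247%). Of the 56, 42 were shared with E2, which is 70% of the E2 rises and 75% of the E1 rises. The comparisons share the WT libraries. The direct test called 13 elements higher (1.07%) and 18 lower (1.48%) in E2 than in E1. By it, 43 of the 60 rises were not called different from E1, 12 were higher in E2 and 5 lower. Some of the 43 had an adjusted p of at most 0.01 with a log2 difference under 1 in size. Among them RLTR6_Mm (0.94), RLTR6-int (0.86) and MMVL30-int (0.59) were higher in E2, and MMERVK10C-int (-0.56) and RLTR10C (-0.50) lower. The 12 include U2, whose rise rests on a single library. They also include the low-count elements L1Lx_II_5end_ORF1only and Arthur1A, which are not LTR elements. Lists of ERV1 and ERVK elements known to need Eset1 gave 13 of 20 and 16 of 47 rises in E2 (medians 2.22 and 0.52), and 13 and 20 in E1 (2.51 and 0.49). RLTR45 elements match both lists. Over all elements tested 4.93% rose in E2, with a median of 0.11.

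The size of the rise parted E2 from E1 in named elements. MuLV-int reached 517526, 477907 and 445142 counts in E1, and E2 lay below it by a log2 difference of -2.26 (adjusted p = 1.14e-21). IAP1-MM_I-int (-2.10), RLTR4_Mm (-1.94) and RLTR4_MM-int (-1.72) were also lower in E2 than in E1, in every library. In the other direction, ERVB4_1-I_MM had 9.59, 10.96 and 9.03 counts in WT, 145, 223 and 124 in E2 and 13.7, 15.8 and 10.6 in E1, a direct log2 difference of 3.63 (adjusted p = 2.94e-17). RLTR9A3A (3.04), RMER17A-int (1.83), ETnERV2-int (1.29), RMER17D (1.26), RMER16-int (1.16) and RLTR45-int (1.12) were higher in E2 too. Summed by family, ERV1 rose by 3.64 ± 0.13 in E2 and 4.48 in E1, with a direct difference of -0.84 (adjusted p = 1.11e-05, under the minimum for a call). ERVK had 0.98 ± 0.09 in E2, just under the minimum (adjusted p = 2.67e-09). Gypsy, the other family of 58 called higher (3.45% of families), rose by 1.05 on low counts, and 1 of its 4 tested elements rose. It had 38.4, 26.5 and 50.2 counts in WT and 84.5, 51.1 and 106 in E2, so E2 replicate 2 barely exceeded WT. The lower Setdb1 count in E2 stands beside the rises of these elements and families, and its part in them was not tested.

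For genes, the rises shared with E1 made a smaller share of either list than for repeats. E1 raised 421 genes (2.27%) and lowered 369 (1.99%). The 209 genes raised in both make 38.8% of the E2 rises and 49.6% of the E1 rises, with medians of 2.42 in E2 and 2.39 in E1. The 171 genes lowered in both make 28.7% of the E2 falls and 46.3% of the E1 falls, with medians of -2.27 and -1.81. Again the WT libraries are shared. Opposite calls in E1 were made for 8 of the E2 rises and 14 of the E2 falls.

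The direct test of E2 against E1 called 418 genes higher (2.25%) and 497 lower (2.68%) in E2. Of the 538 rises, 188 were higher in E2 than in E1, 27 lower and 323 not called different. Of the 596 falls, 276 were lower in E2, 10 higher and 310 not called different. Of the 329 rises not called in E1, 171 were also higher than in E1, and of the 425 such falls, 239 were also lower.

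Of 30 genes known as Eset1 targets in other cells, 17 were tested, 2 rose and 3 fell, where 2.9% and 3.21% of all genes did, with a median log2 fold change of 0. In E1 itself 1 of the list rose and 1 fell. Il6 and Bglap3 were the rises in E2. The call of Il6 was not made with DESeq2 (adjusted p = 0.0106), nor without any 1 of the WT libraries or E2 replicate 1 or 3. Wnt5a, a secreted signal, had 771, 803 and 815 counts in WT and 246, 271 and 246 in E2 (-1.64 ± 0.09) and fell alike in E1 (-1.49). Sox9, a transcription factor of cartilage, had 133, 76.7 and 95.3 counts in WT and 54.7, 25.1 and 39.2 in E2 (-1.38 ± 0.25), with the E2 libraries all lower. Its log2 fold change in E1 was 0.65 and the direct difference -2.04 (adjusted p = 5.78e-07). The third fall, Dlk1, is described with the imprinted genes. Of 39 germline genes, another class kept silent by H3K9 methylation, 14 were tested and 2 rose, Stag3 (3.33 ± 0.28) and Tex19.1 (2.56 ± 0.46). Both were lower in E2 than in E1, by -1.36 and -1.60.

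Imprinted genes, which are expressed from 1 parental copy, held some of the largest falls. Of 35 listed, 24 were tested, 5 fell and 1 rose, where 3.21% and 2.9% of all genes tested did. Igf2, a fetal growth factor, had 228, 221 and 273 counts in WT and 2.38, 7.17 and 2.38 in E2 (-5.78 ± 0.28). H19, the non-coding RNA next to it on chromosome 7, had 233, 234 and 260 counts in WT and 2.38, 5.38 and 1.19 in E2 (-6.19 ± 0.25). Both also fell in E1, with -4.47 and -3.72. Dlk1, an inhibitor of adipocyte formation, had 434, 359 and 399 counts in WT and 2.38, 6.28 and 3.56 in E2 (-6.49 ± 0.30). E1 kept a Dlk1 mean of 269, and the direct difference was -5.93 (adjusted p = 1.26e-12).

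Plagl1, a zinc-finger growth regulator, moved in opposite directions in the mutants, with a log2 fold change of -1.22 ± 0.19 in E2 and 1.25 in E1, a direct difference of -2.47 (adjusted p = 1.71e-10). With only the 6 WT and E2 libraries in the edgeR fit, neither Plagl1 (adjusted p = 0.0185) nor Sox9 (adjusted p = 0.0179) was called. Ppp1r9a fell as well (-1.18). Snrpn, a splicing protein of the Prader-Willi region, had 40.5, 56.6 and 39.1 counts in WT and 145, 172 and 151 in E2 (1.77 ± 0.16), and -0.11 in E1.

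**Figure D4:**
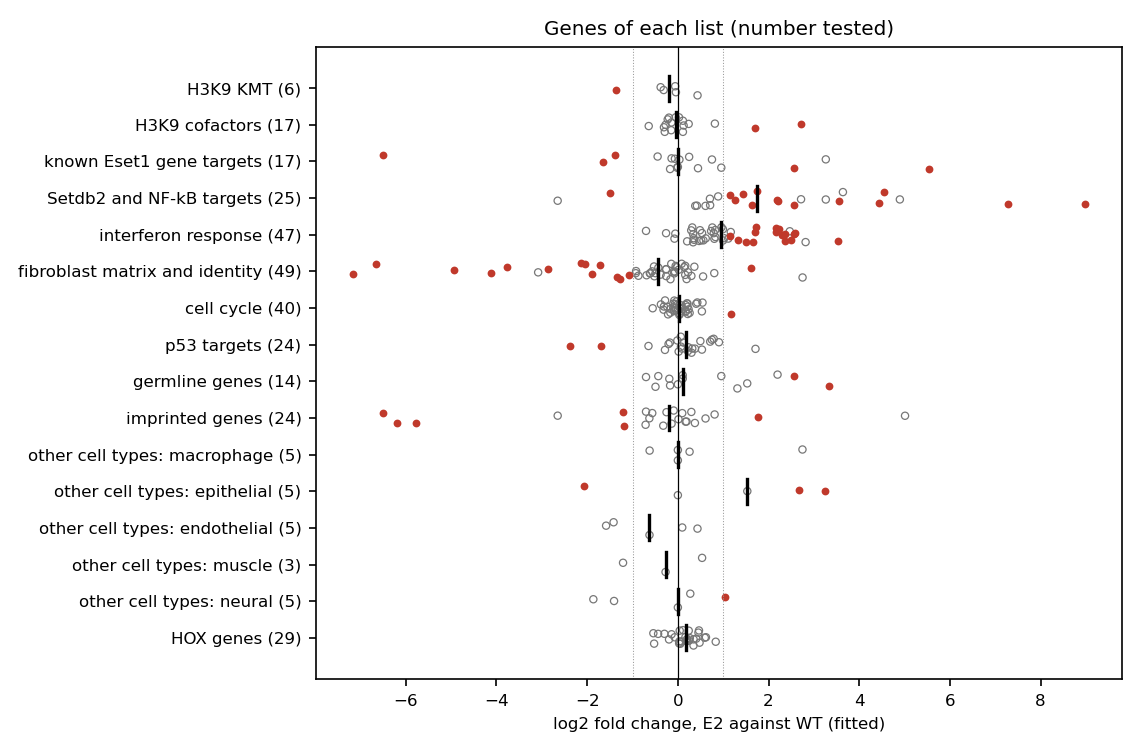
Log2 fold change of E2 against WT (x axis) as fitted, for every tested member of the gene lists, 1 row per list, with called members as filled red points, the others as open grey points and a black bar at the median of the list. Most calls are in the NF-kB, interferon and matrix lists, and the 13 falls of the matrix list reach -7.17.

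Other gene groups can be read against the 2.9% of all genes that rose and the 3.21% that fell. Of 40 cell cycle genes 1 rose, the mitotic transcription factor Foxm1 (1.17 ± 0.08; 1.23 in E1). Of 24 p53 targets 2 fell, the apoptosis genes Pmaip1 (-2.37 ± 0.14) and Perp (-1.69 ± 0.42), and 0 rose. These 2 do not stand for the list: its median log2 fold change was 0.17, and 17 members were above 0. With edgeR 12 were higher and 6 lower at an unadjusted p under 0.05. Among the 29 tested HOX genes edgeR and DESeq2 called 0, and with edgeR 9 were higher and 1 lower at an unadjusted p under 0.05. Of 5 epithelial markers tested 2 rose and 1 fell. The rises were keratins of simple epithelia: Krt8 had 18.1, 25.6 and 31.1 counts in WT and 208, 273 and 228 in E2 (3.24 ± 0.17), and Krt19 had 157, 199 and 156 in WT and 1142, 1195 and 949 in E2 (2.68 ± 0.10). All E2 libraries were above WT for both, and Krt19 was also higher in E2 than in E1 (1.58), while the difference for Krt8 (0.84) was under the minimum for a call. The defining epithelial gene Epcam had 11.7, 7.30 and 14.1 counts in WT and 2.38, 1.79 and 3.56 in E2 (-2.07 ± 0.55), a call lost with DESeq2 (adjusted p = 0.0126) and without WT replicate 1 or 3 or E2 replicate 1 or 2. Esrp1 was at 0 in all 6 libraries. The summed level of the epithelial markers was 189 to 232 in WT and 1185 to 1472 in E2. Of the neural markers Tubb3 rose by 1.04, a call lost without WT replicate 1 or 3 or E2 replicate 2. The call of Perp was lost without WT replicate 2 or E2 replicate 1 or 2. Of 5 endothelial and 3 muscle markers tested edgeR and DESeq2 called 0, with 2 endothelial lower and 1 muscle marker higher at an unadjusted p under 0.05.

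Elements of tRNA origin were lower in E2. Of 47 tRNA elements tested, 26 fell, where 2.22% of all elements tested did. The median log2 fold change of the 47 was -1.17 in E2, against -0.57 in E1, where 2 fell. For tRNA-Trp-TGG the counts were 117, 138 and 94.3 in WT and 14.3, 35.9 and 33.3 in E2 (-2.04 ± 0.25), and tRNA-Lys-AAA, tRNA-Ser-TCY, tRNA-Ser-AGY and tRNA-Tyr-TAC had log2 fold changes of -1.96, -1.84, -1.38 and -1.37. The E2 libraries lay below WT for each of the 27 fallen elements, which held for 5.92% of all elements tested. Without WT replicate 2, which stood apart, 22 elements fell, 20 of the 27 among them. DESeq2 called 24 of the 27. Of 301 small nucleolar RNA genes 11 fell, a share of 3.65% near the 3.21% of all genes tested, and their median was -0.36. The 27th fall, the satellite element SYNREP_MM, had 29.8, 42.0 and 33.1 counts in WT and 15.5, 20.6 and 13.1 in E2 (-1.07 ± 0.27), whereas it rose by 1.84 in E1.

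One of the 60 repeat rises rests on a single library. The U2 element, the small nuclear RNA of the spliceosome, held 160, 43035 and 164 raw counts in E2 and 169 to 179 in WT. The fitted log2 fold change was 6.22 (adjusted p = 9.54e-05), but replicate 2 alone was high. Without it 64 elements rose, 57 of the 60 among them. The same level appeared in replicate 2 of E1E2, with 35568 counts, and in 3 libraries of another line of the series, with 35188 to 53252, while all other libraries held 153 to 267. The ribosomal RNA family was also high in E2 replicate 2, at 763870 against 326907 and 389354 in the other E2 libraries, and high in E1E2 replicate 2, at 687664.

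Along the genome, chromosome 1 stood apart. The median log2 fold change of its 1329 tested genes was -0.30 in E2 and -0.05 in E1. Against the WT mean, it was -0.30, -0.33 and -0.27 in the 3 E2 libraries and between -0.01 and 0 in WT. Of these genes 72 fell (5.42%) and 13 rose (0.978%), where 3.21% and 2.9% of all genes tested did. The share of falls alone does not set chromosome 1 apart. On chromosome 18, whose median was 0.12, 28 of 450 tested genes fell (6.22%) and 13 rose (2.89%). In running windows of 50 genes on chromosome 1 the median was never above 0 and reached -0.61. On the X chromosome no window was above 0 either, with medians from -0.27 to -0.006. On chromosome 2 they ranged from -0.43 to 0.24. Col6a3, Ptgs2 and Ccl20 lie on chromosome 1, and their fold changes are not corrected for its lower median. Medians were -0.14 on the X chromosome, -0.12 on chromosome 14, where Setdb2 lies, and 0.12 to 0.13 on chromosomes 8, 16 and 18. Without WT replicate 2 they were -0.04 on X and -0.06 on chromosome 14, and the WT libraries themselves lay between -0.09 and 0.10 on X. The mitochondrial genes had -0.76, but there WT replicate 2 (0.51) differed from the other WT libraries (-0.33 and -0.34), and without it the median was -0.32. All other chromosomes lay within 0.1 of 0. Chromosome number was not measured.

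**Figure D5:**
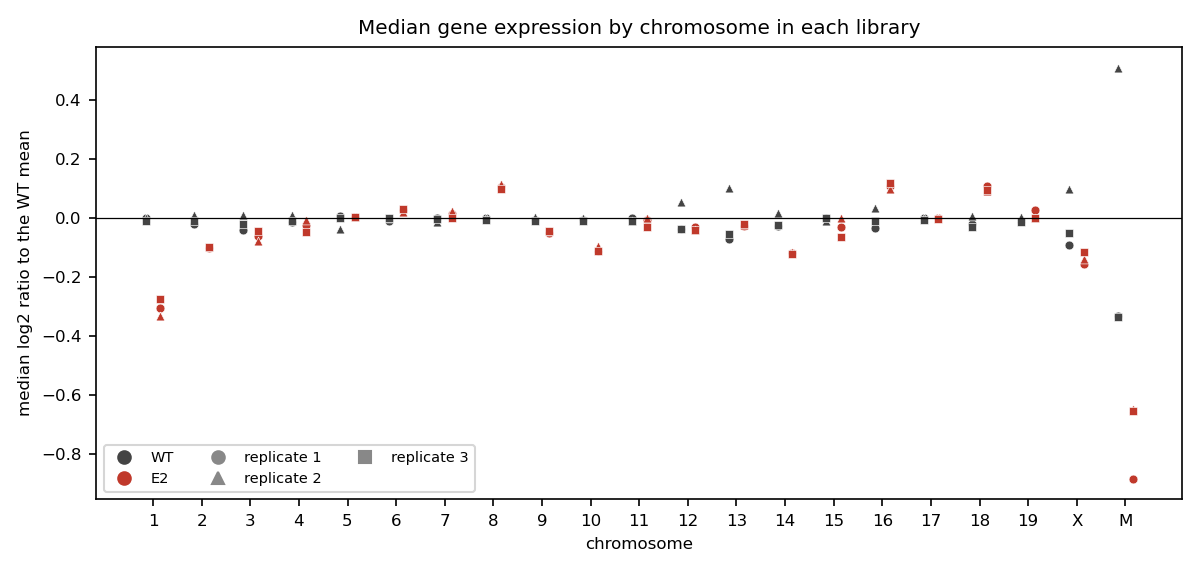
Median over the tested genes of each chromosome, given for each WT (grey) and E2 (red) library as the log2 ratio to the WT mean (y axis), with a marker shape for each replicate. Chromosome 1 lies between -0.27 and -0.33 in all 3 E2 libraries and near 0 in WT.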

How the data were processed

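Total RNA from mouse embryonic fibroblasts was sequenced in 24 libraries, 3 for each of 8 conditions. The study trimmed reads with cutadapt 1.8.1, aligned them to GRCm38 with STAR 2.5.2b and counted genes and repeats with TEtranscripts. The deposited table holds these raw counts for 47937 genes and 1445 repeat elements. Multi-mapped reads are shared among related repeats by that tool. Groups came from the sample titles. Counts were fitted with edgeR 4.0.16 (R 4.3.3; quasi-likelihood test, 1 coefficient per condition over all 24 libraries, trimmed-mean scaling on genes, also used for repeats, low-count filter by condition), which left 18565 genes, 1216 elements and 58 families. Counting by strand is not given in the sources used here, so genes that overlap another (Hspa1a with Gm20481, Lrba with Mab21l2, Crb2 with Dennd1a, H19 with Mir675, Igf2 with Gm49394) are uncertain. Gene positions are from GENCODE M21, in which 47310 genes matched and 627 did not. The genes named are the 6 methyltransferases, the 15 largest separated rises and falls with a mean of at least 100 in the higher condition, called members of the lists and, for repeats, the 10 largest rises and 5 largest falls by the same rule. Elements named beyond that, and the genes, families and chromosomes set beside them, were chosen after their values were seen. The comparison, its members and all lists were chosen with earlier results of these data known. The test was checked on simulated counts with the same spread for every gene and no library that stood apart. That check does not cover calls that depend on such a library.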

Additional observations from a re-analysis of the deposited data

How the results depend on the processing

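Of 328 recomputed counts, ratios and medians, 290 stayed within a set limit and 38 moved further. The limit was 1.5 times for a count. For a class ratio it was the sum of the WT and E2 SDs, each divided by the WT mean. For a chromosome median it was the root of the summed squares of the WT and E2 SDs. No named gene or element that was called changed sign, but sums that were not called crossed a ratio of 1: without WT replicate 2 the LINE, SINE and DNA ratios were 0.997, 0.946 and 0.934, without E2 replicate 3 the DNA and Satellite ratios were 0.991 and 0.980, and with factors from repeats alone the SINE and DNA ratios were 0.957 and 0.948. The causes were not tested unless the setting itself shows one. With only genes above a mean of 100 over all libraries, which leaves fewer genes to test, the counts against WT were 269 higher and 181 lower. Against E1 the counts were 200 and 154. With no fold minimum they were 2328 and 2675 against WT and 1747 and 1990 against E1, and for elements 116 higher against WT and 31 higher and 34 lower against E1, with 2 families lower against WT. With only the 6 libraries of a contrast, which leaves fewer samples for the spread, 329 genes rose and 375 fell against WT, 258 rose in E1, 138 rises were shared, and the NF-kB and interferon lists held 0 and 10 rises. With factors from repeats alone, 9 elements were lower in E2 than in E1, 1 family rose, and the Satellite ratio was 0.909. Leaving out 1 library at a time gave 488 to 547 rises and 557 to 624 falls against WT, 11 to 20 elements lower than in E1, 1 to 8 elements lower in E1 than in WT, 1 to 4 families higher, 7 to 15 NF-kB and 14 to 27 interferon rises. Medians ranged from -0.15 to -0.065 on chromosome 14, 0.11 to 0.14 on 8, 0.11 to 0.16 on 16, 0.10 to 0.17 on 18, -0.31 to -0.29 on 1, -0.17 to -0.042 on X and -0.94 to -0.32 on M. DESeq2 called 542 higher and 550 lower. Without WT replicate 2, 488 genes rose and 48 elements did. Replicate numbers do not pair the libraries: deviations of same-numbered WT and E2 libraries had correlations of -0.0095, -0.064 and -0.049. A fit with the replicate number as a block called 526 genes higher and 584 lower, and it ended the call of Ccl7. Of 109 named results, 99 were tested with only the 6 libraries and 15 of these lost their call there: Sox9, Plagl1, 8 NF-kB genes named above (Cxcl1, Cxcl10, Ccl2, Ccl5, Ccl7, Nfkbia, Tnfaip3, Csf3) and 5 interferon genes (Mx1, Mx2, Zbp1, Xaf1, Rtp4). With DESeq2 2 did, Il6 and Epcam. Without E2 replicate 1, Il6, Ccl7, Ccl20, Nos2, Nfkbia, Tnfaip3, Psmb9, Perp and Epcam lost their call. Without E2 replicate 2 Perp, Epcam and Tubb3 did, and without E2 replicate 3 Il6, Ccl7, Nos2, Csf3, Mx1 and Mx2. Leaving out a WT library ended calls of Il6 and Nos2 (each of the 3), Ccl7, Epcam and Tubb3 (replicate 1 or 3), Psmb9 (replicate 1) and Perp (replicate 2). Low counts limit Il6, Nos2, Ccl20, Perp, Psmb9 and Tex19.1, and 3 libraries a group limit the class sums to p-values of 0.1 or more.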

Other observations

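Other genes departed from the rest of their group in E2 replicate 2, beyond the lists above. These were chosen after their values were seen. Zc3h12a, an RNase that degrades inflammatory messages, had 73.5, 38.4 and 50.2 counts in WT and 514, 82.5 and 505 in E2. The chemokine Cx3cl1 had 135, 110 and 102 counts in WT and 460, 74.4 and 479 in E2. The transcription factor Cebpd had 73.5, 96.8 and 75.3 in WT and 611, 112 and 494 in E2, and Nod2, a sensor of bacterial wall fragments, had 107, 84.0 and 104 in WT and 379, 79.8 and 332 in E2. In each of these 4 genes E2 replicates 1 and 3 lay above WT and replicate 2 near or within its range, and all 4 were called higher.

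A few genes were high in E2 replicate 2 instead. Tmem119, a membrane protein of bone-forming cells, had 495, 1169 and 446 counts in E2 and 627 to 656 in WT. The ion channel gene Kcnh2 had 45.2, 141 and 47.5 counts in E2 and 128 to 178 in WT, and the signal Wnt9a had 186, 458 and 194 in E2 and 120 to 162 in WT. Lars2, whose locus shares sequence with ribosomal RNA, had 632, 9685 and 735 counts in E2 and 629 to 5220 in WT, and 19957 in E1E2 replicate 2.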
